A study of Mus musculus with 3 samples.

Results

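The genes described here are 9 that mark the disease-associated state of microglia: Spp1, Lpl, Cst7, Axl, Cd9, Cd63, Gpnmb, Igf1 and Fabp5. They were taken by symbol from the 27998 genes of the count matrix, and all 9 were found there. The study sorted cells bearing Cd11b, a surface integrin of myeloid cells, from the brain without the cerebellum of C57BL6J female mice aged 5 months, and sequenced them with a 10x Genomics 3′ kit that counts unique molecular identifiers (UMIs). Its labels name 3 groups. Ctrl was 1 untreated mouse. D0 was a pool of 2 mice fed PLX5622, an inhibitor of the receptor Csf1r, at 1200 mg/kg in the diet for 14 days. D2 was 1 mouse given the same diet for 14 days and then control diet for 2 days. Barcodes carry 1 of 3 suffixes, which split the cells into libraries, and nothing in the sources used here ties a suffix to Ctrl, D0 or D2, so the libraries are called 1, 2 and 3 and no group was compared with another. Each library is a single sample, so no difference between libraries has a replicate check, no p-value was computed, and every 95% interval covers counting error only.

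Microglia are the resident macrophages of the brain and depend on Csf1r for survival. In models of amyloid deposition, demyelination and neurodegeneration, and in parts of the developing brain, some microglia take on a state in which genes of lipid uptake, lysosomes and phagocytosis are high and the receptors of resting microglia are low. The 9 genes are among the best known markers of that state: Spp1 (osteopontin), Igf1 and Lpl are secreted, Axl, Cd9, Cd63 and Gpnmb are membrane proteins, and Cst7 and Fabp5 act inside the cell on proteases and fatty acids. None of them is exclusive to microglia.

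The libraries held 1263, 599 and 287 barcodes with 6410990, 4022293 and 2831118 UMIs, median depth per cell was 3662, 6188 and 8172 UMIs, and no barcode sequence was shared between libraries. Levels are counts per 1000000 UMIs (CPM) of all cells of a class and library summed, given where a class had at least 20 cells, which left 15 sums. Classes were named from marker genes after clustering without the 9 genes, and carry the ending "-like". Microglia-like cells made up 1085 cells of library 1, 64 of library 2 and 2 of library 3, in clusters 0, 1 and 2. All 12 microglia markers, Tmem119 and P2ry12 among them, had UMIs in libraries 1 and 2, with sums of 39313 and 21419 CPM. Cluster 2 was led by the stress and immune genes Gdf15, Il1a, Tnf, Egr1 and Ccl3. The libraries drew on different clusters: library 1 placed 454, 453 and 178 cells in clusters 0, 1 and 2, and library 2 placed 38, 5 and 21. A cluster that comes mostly from 1 library may reflect that library rather than a cell type. Clusters 6 and 8, with 234 and 83 cells, stayed unnamed because their leading genes went against their markers.

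The genes lie on 7 chromosomes of the mouse genome, here in build GRCm38 (mm10) with GENCODE M21 annotation, and all are protein-coding. Spp1 is at chr5:104435118-104441050, Lpl at chr8:68880491-68907448, Cst7 at chr2:150570415-150578944, Gpnmb at chr6:49036546-49070929, Igf1 at chr10:87858265-87937042, Cd63 at chr10:128900989-128912822 and Fabp5 at chr3:10012548-10016607, all on the plus strand. Axl, at chr7:25757273-25788705, and Cd9, at chr6:125460266-125494791, are on the minus strand. Cd9, Cd63 and Fabp5 have the named copies Cd9-ps, Cd63-ps and Fabp5l2, Spp1 overlaps Gm42793 on its own strand, and antisense genes overlap Cd9 (Gm26728 and Gm28809) and Igf1 (Igf1os). Where the authors' counting could share reads among these, the counts of those 5 genes are uncertain.

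Promoters of the 9 genes were searched for 4 short motifs on both strands. RefSeq promoter windows of GRCm38.p6, from 250 bases before to 50 bases after the RefSeq start, matched 7 of the 9 genes, with 8 windows. Lpl and Fabp5 had no entry. GAGGAAGT, a site of the myeloid factor PU.1, was in 3.20% of all 32851 windows, and TGANTCA, the AP-1 site, in 7.81%. TATAAA, the TATA box, was in 13.6% and CACGTG, the E-box bound by the lysosomal and lipid regulators of the MiT/TFE family, in 7.15%. The 4 windows that held a match are shown around it, 5′ to 3′ on the plus strand, with the match in capitals. They are Spp1 from chr5:104434861-104435120, Cst7 from chr2:150570295-150570424, Igf1 from chr10:87860991-87861120 and Gpnmb from chr6:49036418-49036537.
Spp1: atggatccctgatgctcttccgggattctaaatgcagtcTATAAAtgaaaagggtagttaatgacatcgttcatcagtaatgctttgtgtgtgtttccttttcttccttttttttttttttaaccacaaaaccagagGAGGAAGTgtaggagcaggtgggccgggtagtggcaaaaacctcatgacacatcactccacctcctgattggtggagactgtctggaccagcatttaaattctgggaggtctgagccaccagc
Cst7: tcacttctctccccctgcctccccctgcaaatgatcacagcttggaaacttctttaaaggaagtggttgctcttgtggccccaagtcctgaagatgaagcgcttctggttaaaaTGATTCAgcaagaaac
Igf1: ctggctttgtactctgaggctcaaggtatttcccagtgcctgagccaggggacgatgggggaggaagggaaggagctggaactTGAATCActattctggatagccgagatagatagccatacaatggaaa
Gpnmb: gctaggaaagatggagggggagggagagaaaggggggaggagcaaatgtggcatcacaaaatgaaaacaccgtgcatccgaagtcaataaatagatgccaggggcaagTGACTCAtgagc
The Spp1 window held TATAAA beginning 211 bases and GAGGAAGT beginning 113 bases before the start. AP-1 letters began 6 bases before the start of Cst7, 37 bases before that of Igf1 and 8 bases after that of Gpnmb, so 3 of the 8 windows held them. The windows of Cd9, Axl and Cd63, and the other window of Spp1, held none of the 4 motifs. No window held CACGTG. A match describes letters in the window and is not evidence of binding.

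Among the secreted products, Spp1 encodes osteopontin, a ligand of integrins and Cd44. It was at 3.26 CPM in microglia-like cells of library 1 (16 UMIs, 95% interval 1.86 to 5.30) and at 591 CPM in those of library 2 (181 UMIs, 508 to 683). That sum rested on few cells. In library 2 all 181 UMIs came from 3 of 64 cells, which held 92, 71 and 18 UMIs of Spp1 at depths of 7492, 9104 and 9626 UMIs, and the other 61 cells held none. None of those 3 cells had a UMI of Tmem119, and in the same order they had 8, 0 and 5 UMIs of P2ry12. Each had Cx3cr1, another microglia marker, with 8, 16 and 10 UMIs. Cx3cr1 was also at 2152 CPM in border-associated-macrophage-like cells of library 1. Of those 91 cells, however, 73 were named microglia when cells were named one by one, so this level may be that of microglia. None of the 3 cells had a UMI of the monocyte markers Ly6c2 and Ccr2 or the macrophage markers Mrc1 and Ms4a7. When the 9 genes were kept for the clustering, microglia-like cells of library 2 held 110 UMIs of Spp1 (362 CPM). With every cell thinned to 2000 UMIs, a Spp1 UMI was in 3 of 58 microglia-like cells of library 2 (5.17%). It was in 4 of 67 NK-like cells of the same library (5.97%), the class used as background. The share of cells was thus not above that of NK-like cells. Whether NK-like cells make Spp1 themselves was not tested. Their sum was 45.9 CPM from 12 UMIs, beside 36.8 CPM in classical-monocyte-like and 16.0 CPM in neutrophil-like cells of library 2. Median depths of the microglia-like and NK-like cells were 3748 and 3092 UMIs. In the 3 microglia-like cells with Spp1 the count was above that of any NK-like cell, none of which had more than 3 UMIs of Spp1. Library 1 had 13 NK-like cells, too few for such a background.

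Spp1 outside microglia-like cells was highest in classical-monocyte-like cells of library 3, at 305 CPM, where 342 of 539 UMIs lay in 1 cell and the level without that cell was 113 CPM. It was at 36.8 CPM in the same class of library 2, at 55.7 CPM in border-associated-macrophage-like cells of library 1 and at 57.1 CPM in mature-migratory-dendritic-cell-like cells of library 2. The microglia-like sum of library 2 and the monocyte-like sum of library 3 were the 2 highest of the 15, and their intervals did not overlap.

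Igf1, a growth factor that macrophages and microglia supply to neurons and oligodendrocytes, was close to absent from microglia-like cells of library 1, at 1.02 CPM (5 UMIs in 5 of 1085 cells). In library 2 it reached 111 CPM, with 34 UMIs in 10 of 64 cells, 18 of them in 1 cell. Border-associated-macrophage-like cells of library 1 had 76.5 CPM (70 UMIs in 31 of 91 cells), and the intervals of these 2 sums, 76.8 to 155 and 59.6 to 96.7 CPM, overlapped. Every other sum was at 6.22 CPM or below. After thinning, 10 of 91 macrophage-like cells and 2 of 58 microglia-like cells of library 2 (3.45%) had an Igf1 UMI, against 0 of 67 NK-like cells of library 2, which allows a share of up to 4.48%.

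Lpl, the lipase that frees fatty acids from lipoproteins, was at 9.58 CPM in microglia-like cells of library 1 (47 UMIs, 27 of 1085 cells) and at 277 CPM in library 2 (85 UMIs, 17 of 64 cells). It was in more cells than Spp1, though 3 cells held 59 of the 85 UMIs in library 2. After thinning, 11 of 58 cells of library 2 (19.0%, interval 9.87 to 31.4) and 12 of 1017 of library 1 (1.18%) had a UMI, against 0 of 67 NK-like cells. Its highest sum was in classical-monocyte-like cells of library 3, at 305 CPM (539 UMIs, 79 of 122 cells), with an interval that overlapped that of microglia-like cells of library 2. The same class held 12.7 CPM in library 2. Mature-migratory-dendritic-cell-like cells had 1 UMI of Lpl in 54 cells, and NK-like cells of libraries 2 and 3 had 0.

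Axl is a receptor tyrosine kinase that binds apoptotic cells through Gas6. It had 17 UMIs in microglia-like cells of library 1 (3.46 CPM) and 10 UMIs in those of library 2 (32.6 CPM). Its highest sum was in cells of the unnamed cluster 6 of library 1, at 67.7 CPM, followed by classical-monocyte-like cells of libraries 3 and 2, at 53.7 and 49.6 CPM, and these intervals overlapped. Border-associated-macrophage-like cells of library 1 had 40.4 CPM, with a UMI in 24 of 91 cells. No NK-like cell had a UMI of it.

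Gpnmb, a membrane glycoprotein of lysosome-rich macrophages, was barely detected. Microglia-like cells had 0 UMIs in library 1, where 3 counts would be 0.611 CPM, and 6 UMIs in library 2 (19.6 CPM). That is 32.0 times a floor of 3 counts in the library 1 sum. With the counting error of both sums, the lower 95% limit of the ratio was 18.9. The 6 UMIs lay in 2 cells, and with cells limited to 5% mitochondrial counts both libraries had 0 UMIs. NK-like cells of library 2 were at 15.3 CPM from 4 UMIs and classical-monocyte-like cells of that library at 11.4 CPM from 9 UMIs, 8 of them in 1 cell, so the level in microglia-like cells of library 2 was not distinguishable from the levels of these 2 classes at this depth. Neutrophil-like and mature-migratory-dendritic-cell-like cells of library 2 had 0 UMIs.

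The tetraspanins Cd9 and Cd63 organise membrane domains, Cd9 at the cell surface and Cd63 mainly in late endosomes and lysosomes. Cd9 was already present in 1070 of 1085 microglia-like cells of library 1, at 2063 CPM (interval 2023 to 2104), and in all 64 of library 2, at 2617 CPM (2439 to 2804), a ratio of 1.27. Those were its 2 highest sums. It was at 1177 CPM in cells of the unnamed cluster 8 of library 3, at 1115 CPM in border-associated-macrophage-like cells of library 1 and lowest, at 128 CPM, in mature-migratory-dendritic-cell-like cells. Cd63 differed more. It was at 689 CPM in microglia-like cells of library 1, in 886 of 1085 cells, and at 2496 CPM in library 2, in all 64 cells, a ratio of 3.62 (interval 3.35 to 3.92). The 3 cells with the most Cd63 held 16.2% of its UMIs in library 2, so no few cells carried this difference. The median cell had 8 UMIs of Cd63 in library 2 and 2 UMIs in library 1, at median depths of 3748 and 3393 UMIs. Mature-migratory-dendritic-cell-like cells had the next highest level, 1316 CPM, with UMIs in 50 of 54 cells, and NK-like cells were at 34.4 CPM in library 2 and 36.2 CPM in library 3.

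Cst7, cystatin F, inhibits cathepsins of the lysosome and is also made by cytotoxic lymphocytes. It was at 14.9 CPM in microglia-like cells of library 1 (55 of 1085 cells) and at 431 CPM in library 2 (132 UMIs, 24 of 64 cells). NK-like cells reached 310 CPM in library 2 and 353 CPM in library 3, and in the order of these 3 sums each interval overlapped the next. Thinned shares were 15 of 58 microglia-like cells of library 2 (25.9%) and 24 of 1017 of library 1 (2.36%). The share was 1 of 91 border-associated-macrophage-like cells of library 1 (1.10%), of which 73 were named microglia one by one. Library 2 had 3 cells of that class, too few for such a background, so its share has none. All remaining sums were at 61.1 CPM or below.

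Fabp5 carries fatty acids in the cytosol. It exceeded 100 CPM in 4 of the 15 sums: 911 CPM in mature-migratory-dendritic-cell-like cells of library 2 (46 of 54 cells), 189 CPM in microglia-like cells of library 2 (10 of 64 cells), 144 CPM in cluster 8 of library 3 and 106 CPM in classical-monocyte-like cells of library 3. Microglia-like cells of library 1 held 3.87 CPM, with 19 UMIs in 18 of 1085 cells. In library 2 the microglia-like UMIs were uneven, 43 of 58 in 3 cells.

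**Figure D1:**
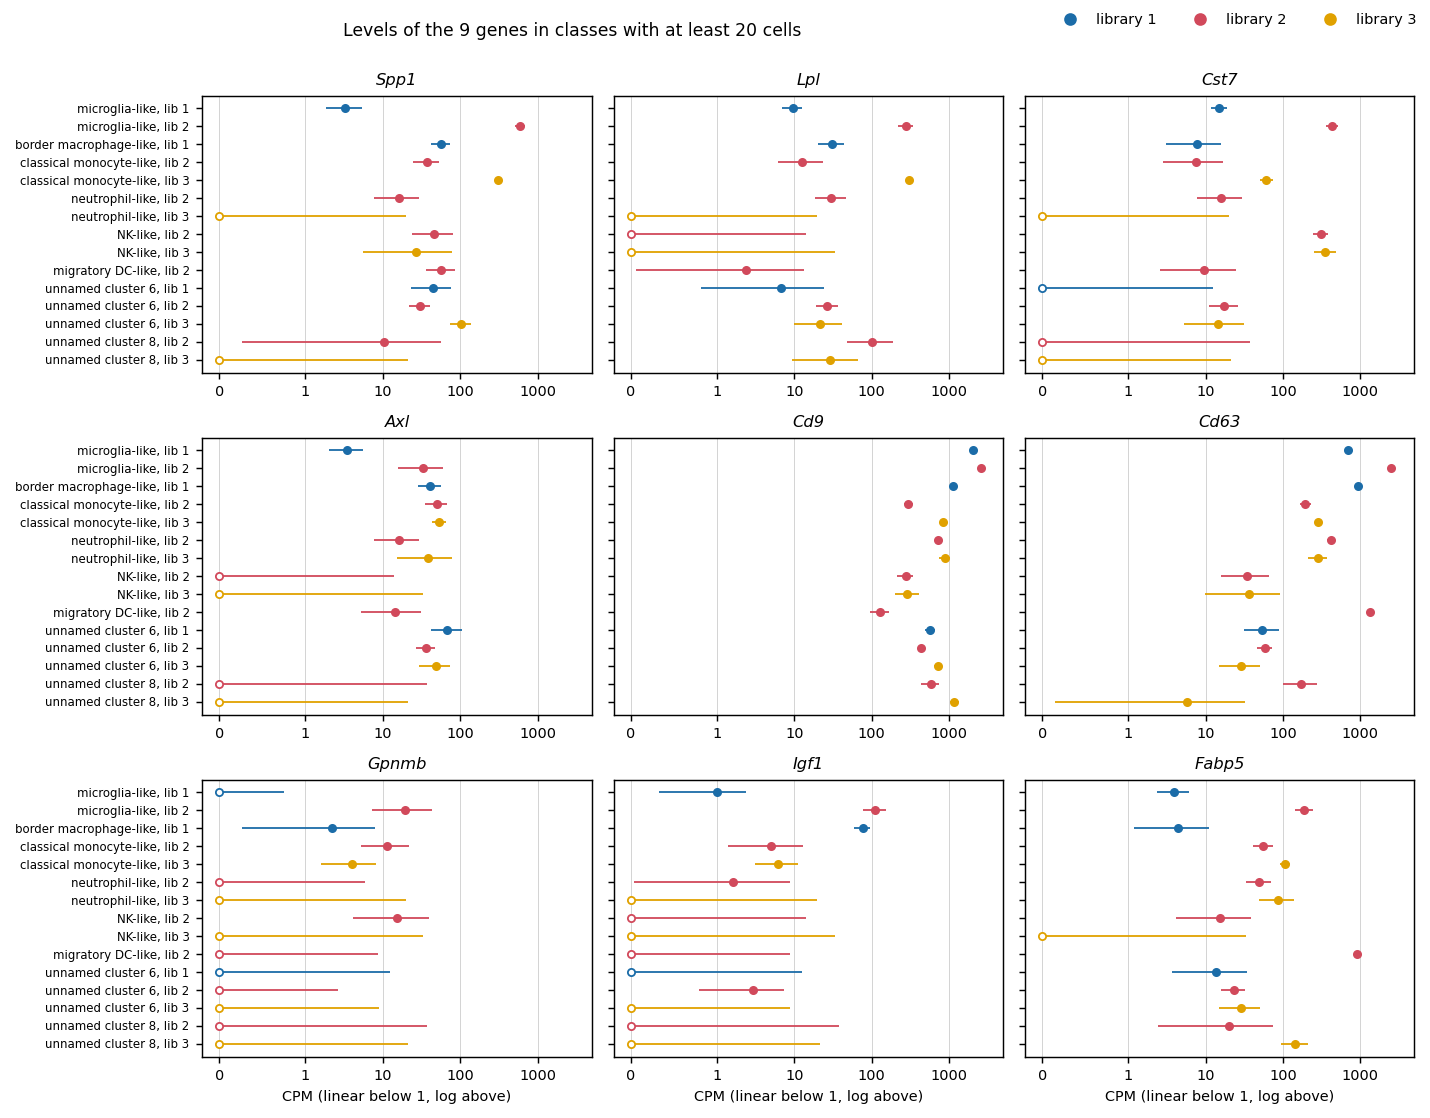
Levels of each gene (CPM of summed UMIs, linear below 1 and logarithmic above) in the 15 sums of at least 20 cells. Points are sums, bars are 95% Poisson intervals, open points are sums with 0 UMIs, and colours are libraries. Spp1, Cst7, Cd9, Cd63, Gpnmb and Igf1 have their highest point in microglia-like cells of library 2, Lpl in classical-monocyte-like cells of library 3, Fabp5 in migratory-dendritic-cell-like cells and Axl in cluster 6.

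The comparison of microglia-like cells between libraries 2 and 1 was made for genes with at least 50 UMIs over both sums, and a gene was counted when its CPM differed at least 2-fold. Of the 9 genes, 6 reached 50 UMIs. Of these, 5 (Spp1, Lpl, Cst7, Cd63 and Fabp5) were at least 2-fold higher in library 2 and 0 were lower, with Cd9 between. Of the 7240 genes with enough UMIs, 2.50% were at least 2-fold higher and 19.9% at least 2-fold lower. Spp1, Lpl and Fabp5 had fewer than 50 UMIs in library 1 and entered through their counts in library 2, so the share of the 6 is a description. The ratios were 181 for Spp1 (interval 109 to 324), 29.0 for Lpl (upper bound 42.3), 28.9 for Cst7 (21.6 to 39.1) and 48.9 for Fabp5 (28.7 to 86.9). Among the genes below the minimum, the ratio was 109 for Igf1 (42.4 to 357) and 9.42 for Axl (3.85 to 21.8). Since the libraries could not be tied to the study's groups, these ratios carry no direction for the drug or for its withdrawal.

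The difference had parts that rested on few cells and parts that did not. Without the 3 cells of each library with the largest share of UMIs from the 9 genes, an alternative chosen after the values were seen, Spp1 fell to 0 UMIs in library 2, while Lpl stood at 111 CPM, Cst7 at 243 CPM, Cd63 at 2323 CPM and Fabp5 at 114 CPM. These 4 stayed at least 2-fold higher than in library 1, where 2.27% of 7217 genes were. Within cluster 0 alone, Cst7 (445 against 23.6 CPM) and Cd63 (2414 against 776 CPM) were at least 2-fold higher among 3 genes with enough UMIs, beside 2.25% of all genes. Cst7 had 34 UMIs in library 1 there and reached the minimum with library 2. Within the stress-gene-led cluster 2, Spp1, Lpl, Cst7 and Cd63 were, among 5 genes, beside 3.04% of all genes. In that cluster Spp1, Lpl and Cst7 had 13, 29 and 16 UMIs in library 1 and entered through library 2, so the count is a description. All 163 Spp1 UMIs of library 2 in cluster 2 came from the cells with 92 and 71 UMIs, among 21 cells. With cells limited to 5% mitochondrial counts, clustering put 32 cells of library 2 in the border-associated-macrophage-like class and left 43 as microglia-like. Lpl, Cst7 and Cd63 were then the 3 genes at least 2-fold higher, at 152, 384 and 2425 CPM, and Spp1, with 18 UMIs, and Fabp5, with 14 UMIs, missed the minimum in the sum of both libraries.

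**Figure D2:**
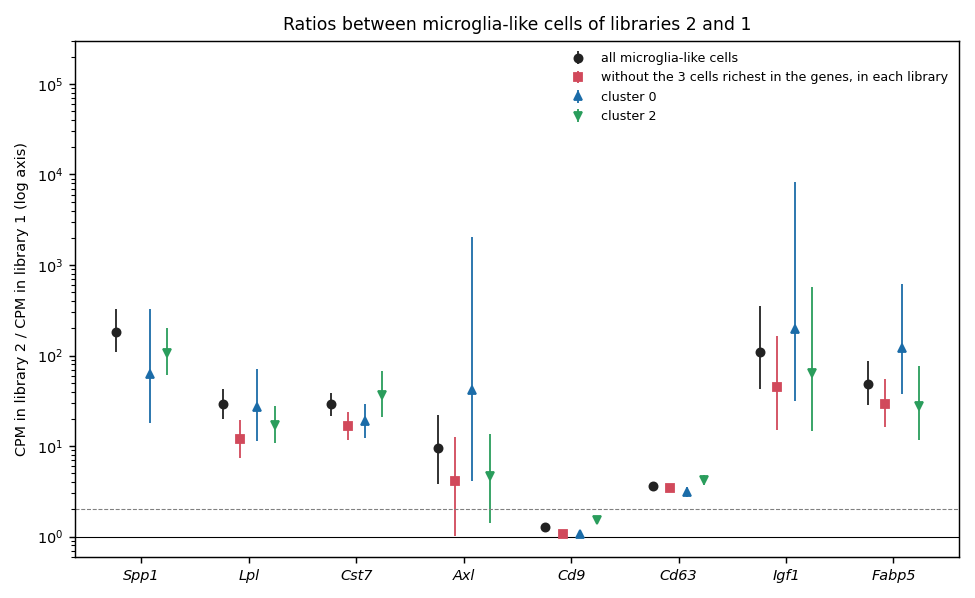
Ratio of CPM in microglia-like cells of library 2 to library 1 (log axis) with 95% intervals from counting error. Marks are all cells, all cells without the 3 richest of each library, cluster 0 and cluster 2, the solid line is no difference and the dashed line is 2-fold. Gpnmb, with 0 UMIs in library 1, and Spp1 without the 3 cells, with 0 UMIs in library 2, are not drawn. Cd63 lies between 3.11 and 4.22 in all 4 settings, and Cd9 lies below 2-fold in all 4.

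RNA from other cells and handling stress were measured beside these values. In microglia-like cells the 9 classical monocyte markers had sums of 16.9 CPM (library 1) and 48.9 CPM (library 2), with 3 of the 9 at 0 in library 2, and the 11 border-associated macrophage markers summed to 212 and 144 CPM, with 7 of the 11 at 0 in library 2. The 10 neutrophil markers came to 218 and 731 CPM, and 2 of them were at 0 in library 2. A list of 16 dissociation and immediate early genes came to 12452 and 11233 CPM. The median share of mitochondrial counts was 1.13% and 1.95%. The part of these differences in the levels of the 9 genes was not tested.

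Library 3 had only 2 cells in the microglia-like clusters. A second naming, cell by cell, called a cell microglia when the microglia markers made up at least 0.3% of its UMIs and outnumbered the markers of every other class. It named 1171, 73 and 26 cells in the 3 libraries. Of the 26 cells of library 3, 23 lay in the classical-monocyte-like cluster, 22 had Tmem119, 6 had Ly6c2, a monocyte marker, and 14 had Mki67, a proliferation gene. Their median depth was 19378 UMIs, above the 4107 UMIs of library 2 and the 3560 UMIs of library 1. Cells called doublets had been removed before the naming, and whether doublets that the call missed are among them was not tested.

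In these 26 cells the 9 genes had another pattern than in library 2. Lpl was in all 26 cells, at 541 CPM (288 UMIs), with a median of 8 UMIs per cell, and Cst7 was in 19 cells, at 182 CPM. Axl was in 16 cells, at 78.9 CPM, and Fabp5 in 8 cells, at 56.3 CPM. Spp1 was in 19 of 26 cells, at 753 CPM, but 342 of its 401 UMIs lay in 1 cell. Cd63 was at 665 CPM and Cd9 at 1683 CPM, both below their library 2 levels of 2117 and 2204 CPM under the same naming. Igf1 had 6 UMIs and Gpnmb 1 UMI.

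Against cells of library 1 named in the same way, 5 of 8 genes with enough UMIs (Spp1, Lpl, Cst7, Axl and Fabp5) were at least 2-fold higher in library 3, beside 11.9% of all 7896 genes, and Cd9, Cd63 and Igf1 were not. Cd63 had a ratio of 0.946 (interval 0.846 to 1.05). Fabp5, with 24 UMIs in library 1 and 30 in library 3, reached 50 only in the sum. Of 30 other genes known to be higher in the state that had enough UMIs, 11 were at least 2-fold higher and 7 lower, beside 11.9% and 26.7% of all genes. Their median log2 ratio was 0.08, beside -0.18. The microglia markers differed too, at 36333 CPM in library 1 and 8636 CPM in library 3, and their part in these ratios was not tested. Against library 2, 7 of the 9 genes had enough UMIs. Of these 7, 2 (Lpl and Axl) were at least 2-fold higher in library 3, beside 22.6% of 2369 genes. Another 2 (Cd63 and Fabp5) were at least 2-fold lower, beside 10.0%, and Spp1, Cst7 and Cd9 were neither. Axl, with 42 UMIs in library 3 and 14 in library 2, reached 50 only in the sum. Fabp5 had 30 UMIs in library 3 and entered through the 61 of library 2, so these counts are a description. The comparisons with libraries 1 and 2 share the library 3 cells. At a thinned depth of 2000 UMIs, Lpl was in 53.8% of the cells of library 3, in 19.4% of those of library 2 and in 1.54% of those of library 1.

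**Figure D3:**
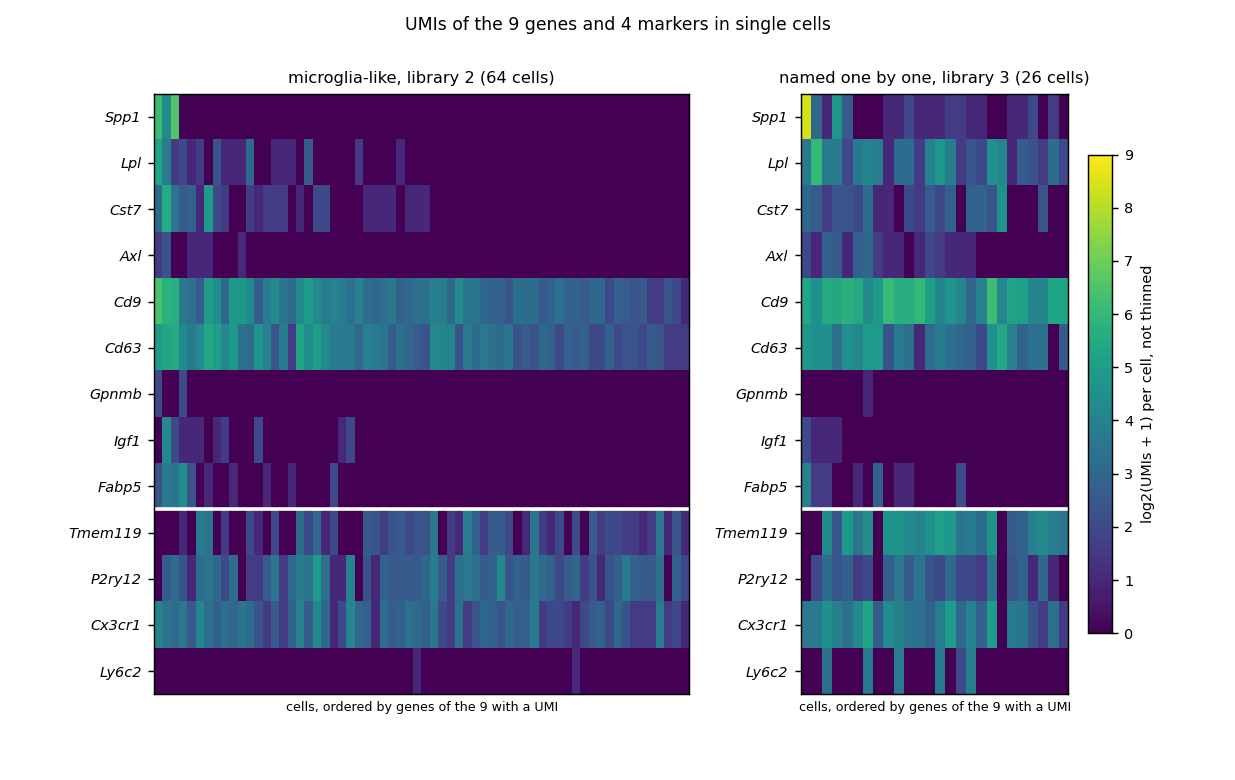
UMIs of the 9 genes (upper rows) and of Tmem119, P2ry12, Cx3cr1 and Ly6c2 (lower rows) in each of 64 microglia-like cells of library 2 and 26 cells of library 3 named microglia one by one, as log2(UMIs + 1) without thinning, with cells ordered by how many of the 9 genes they held. Spp1 sits in 3 cells of library 2, Cd9 and Cd63 in all 64, and Lpl in all 26 cells of library 3, which were deeper.

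The genes were next counted within single cells, each thinned to 2000 UMIs so that depth did not set the count. Cd9 and Cd63 were in most microglia-like cells, so 3 or more genes means at least 1 of the other 7. In library 1, 43 of 1017 cells (4.23%, interval 3.08 to 5.65) had at least 3 of the 9 genes. In library 2 it was 22 of 58 cells (37.9%, interval 25.5 to 51.6), and 9 of 58 had at least 4. Among the 26 cells of library 3 named one by one it was 17 (65.4%, interval 44.3 to 82.8), beside 4.98% and 37.3% of the cells of libraries 1 and 2 named in that way. Thinning left out 68 cells of library 1 and 6 of library 2, and the shares without it were 9.31% and 51.6%. The 2 cells of library 2 with 7 and 8 of the genes were among the 3 cells with Spp1.

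Pairs of the scarcer genes met in few cells of library 2. Lpl was in 11 and Cst7 in 15 of the 58 thinned cells, and 4 cells held both. Lpl and Fabp5 met in 4 cells, of 11 and 6. Spp1 was found with Cst7 in 3 of its 3 cells. Most cells with a UMI of Lpl or Cst7 thus had none of the other at this depth, where an unsampled UMI cannot be told from a gene that is off.

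**Figure D4:**
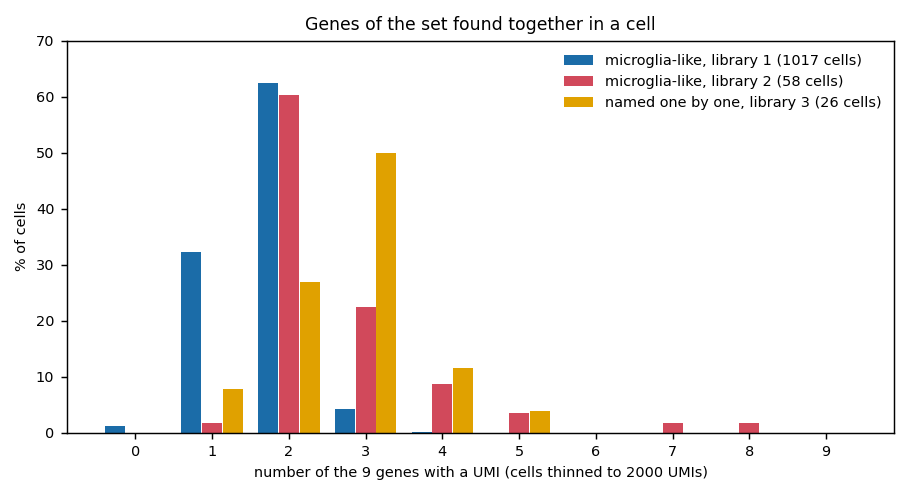
Share of cells (%) by the number of the 9 genes with a UMI after thinning to 2000 UMIs, for 1017 microglia-like cells of library 1, 58 of library 2 and 26 cells of library 3 named one by one. Cells with 2 genes are the most frequent in libraries 1 and 2, and cells with 3 genes, 13 of 26, in library 3.

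Other genes of the same state were taken from a list of 37, of which 36 were measured. Between microglia-like cells of libraries 2 and 1, 16 of the 28 with enough UMIs were at least 2-fold higher and 0 lower, beside 2.50% and 19.9% of all genes tested, with a median log2 ratio of 1.03 beside -0.27 over all genes. Apoe, which carries lipids, went from 1125 CPM in library 1 to 20016 CPM in library 2. Lgals3, a galectin, was at 11.4 and 290 CPM, Lyz2, lysozyme, at 565 and 3958 CPM, and Lgals3bp at 79.7 and 326 CPM. Cox6a2 had a ratio of 4.45. The smallest ratios of the list were those of Ctsd, a lysosomal protease (1.36), of Trem2, the receptor on which the state depends in disease models (1.22), and of Serpine2 (1.01). Without the 3 richest cells the count was 12 of 28.

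Of 18 genes known to be lower in the state, 11 were at least 2-fold lower in library 2 and 0 higher, beside 19.9% and 2.50% of all genes tested, with a median log2 ratio of -1.21 beside -0.27. Tmem119 went from 3079 to 623 CPM, Selplg from 4094 to 914 CPM and P2ry12, a receptor for released nucleotides, from 4924 to 1285 CPM. Cd33 (ratio 0.882) and Mef2c (0.792) were nearest to no difference, and Cst3 (0.650) and Csf1r, the target of the drug (0.569), were also less than 2-fold lower. Several of these genes are also markers by which the cells were named, so this list is not independent of the naming.

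Among 39 genes that bind, process or regulate the 9, 23 had enough UMIs, and 2 were at least 2-fold higher and 6 lower in library 2, with a median log2 ratio of -0.42. Over all genes tested, 2.50% were higher and 19.9% lower, with a median of -0.27. Ctsl, a protease that cystatins restrain, was at 1382 and 2881 CPM, and Mitf, a regulator of lysosomal genes, at 21.0 and 42.4 CPM from 103 and 13 UMIs. The other proteases Ctsh (ratio 1.47) and Ctsc (1.15), and Lmf1, which matures Lpl (1.10), followed. Itga9, an integrin chain that binds Spp1, had 1 UMI in library 2 and 92 in library 1 (ratio 0.174, interval 0.00436 to 0.994), Igfbp4, which binds Igf1, had a ratio of 0.315 and Ppard, a fatty acid receptor, one of 0.364. In the dissociation and immediate early list, 4 of 16 genes were at least 2-fold higher and 2 lower, beside the same shares of all genes. Fosb, Nfkbiz, Fos and Dusp1 had ratios of 2.93, 2.80, 2.34 and 2.31, Ier2 one of 1.42, and Jun (0.572), Hspa1a (0.322) and Hspa1b (0.0507) had the lowest.

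Within library 2 the 6 genes with enough UMIs were set against the same microglia-like sum in 4 other classes, so these comparisons share it. In all 4 classes Spp1 and Lpl had fewer than 50 UMIs and reached the minimum through the microglia-like sum. So did Cst7 in all but NK-like cells and Fabp5 in all but dendritic-cell-like cells. Cd63 did so in NK-like cells, where it had 9 UMIs. The counts are therefore a description. All 6 were at least 2-fold lower in classical-monocyte-like cells, beside 13.2% of all genes tested, and in neutrophil-like cells, beside 20.1%. In NK-like cells 5 of 6 were lower, beside 21.9%, with Cst7 the exception at a ratio of 0.719. In mature-migratory-dendritic-cell-like cells 4 of 6 were lower, beside 23.0%, Cd63 had a ratio of 0.527, and Fabp5 was 4.81-fold higher, beside 22.3% of genes that were at least 2-fold higher. Without the 3 richest microglia-like cells, the lower genes numbered 2 in NK-like and 2 in dendritic-cell-like cells.

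Within library 1, border-associated-macrophage-like cells exceeded microglia-like cells at least 2-fold in 4 of 7 genes with enough UMIs, beside 3.77% of all genes tested. These were Igf1 (ratio 75.1, interval 30.7 to 238), Spp1 (17.1), Axl (11.7) and Lpl (3.20). In microglia-like cells these 4 had 5, 16, 17 and 47 UMIs and reached the minimum only with the macrophage-like counts, so the count is a description. Spp1 and Lpl were concentrated, with 41 of 51 and 18 of 28 UMIs in 3 of 91 cells, and Axl and Igf1 were spread over 24 and 31 cells. Border-associated macrophages live in the meninges and around vessels, and Mrc1, Pf4 and Lyve1 mark them. All 12 microglia markers also counted for this cluster, at 20381 CPM in sum, and 73 of its 91 cells, with a median depth of 9684 UMIs, were named microglia one by one. In the 18 cells that were not, Axl was at 47.9 CPM from 4 UMIs, Igf1 at 59.9 CPM from 5 UMIs, Spp1 at 24.0 CPM from 2 UMIs and Lpl at 0. When the 9 genes were kept for the clustering, when doublets were kept, or without the 1 cell richest in each gene, the count of higher genes was 2.

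Apoe, Lilrb4a, Lyz2, Lgals3 and Anxa5 had the highest ratios of the other genes of the state in these macrophage-like cells, at 23.3, 21.3, 12.1, 9.96 and 4.21, and Ctsd, Ctsl and Serpine2 the lowest, at 0.533, 0.488 and 0.468. In all, 6 of 29 were at least 2-fold higher and 2 lower, beside 3.77% and 3.40% of all genes tested. The median log2 ratio of the 29 was -0.15, beside -0.04 over all genes, so most of the list was not higher in these cells.

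Between libraries 3 and 2, classical-monocyte-like cells were at least 2-fold higher in Spp1, Lpl, Cst7 and Cd9, 4 of 7 genes with enough UMIs, beside 9.15% of all genes tested. In library 2, Spp1 had 29 UMIs, Lpl 10 and Cst7 6, and these 3 reached the minimum through library 3, so the count is a description. The ratio was 24.0 for Lpl, 8.27 for Spp1, 8.01 for Cst7 and 2.78 for Cd9. The microglia markers moved with them, from 989 CPM in library 2 to 3330 CPM in library 3, and all 12 had UMIs in both. In the 99 cells of library 3 left after the 23 named microglia one by one were removed, those markers summed to 1239 CPM, and Lpl was at 214 CPM in 56 cells, Spp1 at 109 CPM in 42 cells, Cst7 at 29.9 CPM and Cd9 at 512 CPM. The cluster was led in part by the proliferation genes Ube2c, Birc5 and Cdca3, and its median depth was 6654 UMIs in library 2 and 12252 UMIs in library 3.

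Over whole libraries, the share of each gene's UMIs that came from microglia-like cells can be set beside the share of all UMIs that did, 76.7% in library 1 and 7.69% in library 2. In library 1 these cells gave 87.6% of Cd9 and 80.2% of Cst7 UMIs but 22.1% of Axl, 17.8% of Spp1 and 5.68% of Igf1 UMIs. In library 2 they gave 73.9% of Igf1, 56.6% of Spp1, 51.5% of Lpl and 51.2% of Cst7 UMIs, but 8.40% of Axl and 10.1% of Fabp5 UMIs.

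The 9 genes were not uniformly alike over the 15 sums. The Pearson correlation of log2(CPM + 10), a description over sums that share libraries and cells, was highest for Cst7 with Gpnmb (0.62), Cd63 with Igf1 (0.61) and Spp1 with Igf1 (0.60), and lowest for Cst7 with Axl (-0.23). Among 5995 genes with at least 200 UMIs, those most like Axl were Rab7b (0.92) and H2-DMb1 (0.86), and those most like Cd9 were Itgam (0.91), which encodes the Cd11b used for the sort, and Fam134b (0.89). Cd63 was most like Pfkfb3 (0.89) and Dhrs3 (0.86), Fabp5 most like Txndc17 (0.85) and Gabarap (0.82), and Cst7 most like Psph and Ly9 (both 0.82). Igf1 was most like Ccl24 (0.82), a chemokine among the leading genes of the macrophage-like cluster, and Fbxw4 (0.80). Lpl was most like Echs1 (0.78) and Eci2 (0.77), both enzymes of fatty acid oxidation, Spp1 most like Pebp1 (0.75) and Nudt2 (0.72), and Gpnmb, with 32 UMIs in all, most like Ly9 (0.76) and Gbp7 (0.70).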

How the data were processed

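The authors deposited UMI counts per gene and cell in 1 matrix for the series, made with Cell Ranger 2.0.1 on mm10 per the submitters' processing notes. How barcodes were called cells, and whether doublets were removed, is not given in the sources used here. Cells with at least 500 genes and at most 10% mitochondrial counts were kept (5 removed). Scrublet in scanpy 1.11.5 marked 7 cells (0.326%), which were removed, and 2137 were used. Per-cell counts scaled to 10000 were logged, and 2000 variable genes without the 9 genes (6 would have been among them) gave 30 components, 15 neighbours and 13 Leiden clusters at resolution 0.5. A class needed 3 markers, each in a fraction of at least 0.3 of the cells and at 2 times the median of clusters. Intervals are exact Poisson for sums and Clopper-Pearson for shares (95%), and floors are 3 counts. Shares of cells used 1 random thinning to 2000 UMIs. The ratio, interval and thinning code was tested on simulated data. Named genes were the 9 in each class of at least 20 cells, the 5 highest and 3 lowest of each list by ratio, and the 2 genes most like each of the 9. Of the list genes so named, 1 is not reported here. The 9 genes, the lists and the marker sets were chosen with earlier results of these data known. The protocol speaks of more samples than the 3 described, and the others were not analysed here, nor was Clec7a.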

Additional observations from a re-analysis of the deposited data

Results flagged for a closer look

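Cells named microglia one by one from their marker UMIs also lay outside the microglia-like clusters: 88 cells of library 1, 9 of library 2 and 24 of library 3. These are listed because the levels by class leave them out. In library 1, 73 of them were in the border-associated-macrophage-like cluster, and in library 3, 23 were in the classical-monocyte-like cluster. Their part in the levels of those clusters is given above with and without them.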

How the results depend on the processing

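No paired analysis was possible because each group has 1 library and the barcodes carry no replicate number. With 1 sample per group there was no test, so directions and 2-fold counts were followed. Between microglia-like cells of libraries 2 and 1, no value changed direction except Spp1. Without the 3 richest cells Spp1 was at 0 CPM in library 2, against 3.27 CPM in library 1, a difference this depth cannot show. Without those cells Cst7 in microglia-like cells of library 2, at 243 CPM, was also below the 310 CPM of NK-like cells. With all cells it was above them, at 431 CPM. Microglia-like cells of library 2 held the highest CPM for 6 of the 9 genes. That number was 3 with cells named one by one, 3 with the mean of per-cell CPM and 2 without the 3 richest cells. The 5 genes at least 2-fold higher in library 2 became 3 with at most 5% mitochondrial counts and 2 within cluster 0, where fewer genes reached 50 UMIs. At most 5% mitochondrial counts also lowered the genes below microglia-like cells to 3 in classical-monocyte-like, 3 in neutrophil-like, 2 in NK-like and 2 in mature-migratory-dendritic-cell-like cells. The NK-like count was 3 without the 1 richest cell per gene, and without the 3 richest cells the NK-like and dendritic-cell-like counts were 2 and 2. For border-associated-macrophage-like cells the 4 higher genes became 2 with the 9 genes kept in the clustering, 2 with doublets kept and 2 without the 1 richest cell per gene. Their 0 lower genes became 1 at resolution 1.0, 1 with at least 1000 genes per cell, 2 with the mean of per-cell CPM and 1 without the 1 richest cell. The causes were not tested. The share of microglia-like cells with at least 3 genes in library 1 was 2.44% with at most 5% mitochondrial counts, 1.47% thinned to 1000 UMIs (20.3% in library 2) and 9.31% without thinning. Pooled, it was 6.22%, or 40.0% without library 1 and 4.42% without library 2. Depth limits Gpnmb, Axl and Igf1, which had fewer than 50 UMIs in microglia-like cells.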
